A study of Mus musculus with 6 samples.

Results

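The cells described here were smooth muscle cells of the mouse aortic root and ascending aorta that held at least 1 unique molecular identifier (UMI, a tag that counts 1 captured RNA molecule) of Enpep or Notch3 and at least 1 UMI of Nptx2, Scx or Wnt16. They were selected on measured values only. A member had at least 5 Myh11 UMIs and under 20 Dcn UMIs per 10000, at least 1 UMI of Enpep and Notch3 together, under 8 UMIs per 10000 of Pln, Pgam2, Olfr558 and Corin together (called the Pln set below), and a UMI of at least 1 of Nptx2, Scx and Wnt16 (called the trio below). There were 1197 such cells among the 9744 cells under the Myh11 and Dcn limits, a share of 12.3%, and among 24972 cells that passed the quality limits. Their working name placed them in the aortic root, but position was not measured, and the trio itself did not set them apart from cells without Enpep or Notch3, so they are called here by their rule.

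The cells came from 6 female mice of 16 weeks on a 129SVE background. There were 4 control mice and 2 mice with the Loeys-Dietz syndrome (LDS) allele Tgfbr1M318R/+, a heterozygous missense change in a TGF-β type I receptor. Of the controls, 2 were Tgfbr1+/+ and 2 were Tgfbr1+/+; Wnt2CRE; EGFP-L10a, in which the Cre driver turns on a fluorescent ribosomal protein in cells of the cardiac neural crest lineage and their descendants. The aortas were digested with enzymes, live nucleated cells were sorted, and the sorted cells were measured with 10x Genomics 3' chemistry. The deposited table joins 6 libraries whose barcodes end in 1 to 6, and the labels do not pair these endings with the mice. Values below are therefore given per library, as a median and range over 6 libraries, as the number of libraries with 1 direction or, where stated, pooled over cells, and control and LDS cells were not compared.

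Vascular smooth muscle cells contract through actin and a smooth muscle myosin whose heavy chain is Myh11, and they also lay down the elastic fibres and collagens of the aortic wall. Notch3 is a receptor of mural cells, and Enpep encodes glutamyl aminopeptidase, which removes an acidic residue from angiotensin II. Wnt16 is a secreted ligand of Frizzled receptors, Scx (scleraxis) is a basic helix-loop-helix factor best known from tendon, and Nptx2 is a secreted pentraxin first studied at excitatory synapses. Pln restrains the calcium pump of the sarcoplasmic reticulum, Pgam2 is a muscle glycolytic enzyme, Corin is a membrane protease that activates natriuretic peptide, and Olfr558 is an olfactory receptor.

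All 6 libraries together held 30716 barcodes, and between 18218282 and 38105145 UMIs per library remained in the cells that passed the quality limits. The median UMI count per cell was 8689 in members, against 7144 in smooth muscle cells with no Enpep or Notch3 UMI. Of the members, 9 had a barcode sequence found in more than 1 library, and 8.86% had a doublet score in the top 10% of their library, against 5.54% of cells without Enpep or Notch3, 10.2% of Enpep or Notch3 positive cells without a trio UMI and 0.228% of Pln-set-high cells. Doublet calling itself marked as few as 0.0891% of cells in 1 library, so no cell was removed for it and the scores served only as an alternative. Acta2, the smooth muscle actin, stood between 27904 and 31258 counts per 1000000 UMIs (CPM) in members and between 27011 and 30476 CPM in the cells without Enpep or Notch3, so the smooth muscle identity held in every library. Summed markers of fibroblasts reached 952 to 1644 CPM in members (33101 in fibroblasts), those of endothelial cells 34.2 to 121 CPM (5489 in endothelial cells) and those of leukocytes 83.8 to 458 CPM (48199 in leukocytes). In cells without Enpep or Notch3 the same sums were 982 to 1876, 33.2 to 99.8 and 131 to 500 CPM, and pericyte markers summed to 589 to 1071 CPM in members and 687 to 1366 CPM in those cells. Of glial markers 4 of 10 and of mesothelial markers 8 of 10 were at 0 in members.

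Members made up 15.1% of the cells under the Myh11 and Dcn limits in library 1, 16.8% in library 2, 7.71% in library 3, 8.57% in library 4, 12.1% in library 5 and 19.4% in library 6. The counts behind these shares were 243, 144, 120, 150, 385 and 155 cells. The exact binomial 95% interval was 6.44% to 9.15% in library 3 and 16.7% to 22.3% in library 6, which cover counting error only. Libraries 6 and 2, with the highest shares, also had median depths of 9615 and 9838 UMIs per cell, against 5572 to 7530 in the others. With every cell thinned to 3000 UMIs before selection the median share over libraries was 3.27% in place of 13.6%, so how many cells met the rule depended on depth. Thinning removes UMIs that the rule needs, so a lower share follows from it. The part of depth in the differences between libraries was not tested. Library 3, at a median of 6436 UMIs per cell, had a lower share than libraries 4 and 5, at 5572 and 5814.

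Most members met the trio condition through Wnt16. Wnt16 was held by 867 members (72.4%), Scx by 477 (39.8%) and Nptx2 by 292 (24.4%). By combination, 519 members held Wnt16 alone, 196 Scx and Wnt16, 190 Scx alone, 108 Nptx2 alone, 93 Nptx2 and Wnt16, 59 all 3 genes and 32 Nptx2 and Scx. A single trio UMI was all that 484 members (40.4%) held, and 713 held 2 or more. On the other side of the rule, 665 members (55.6%) held Enpep without Notch3, 390 (32.6%) held Notch3 without Enpep and 142 (11.9%) held both. In 798 members (66.7%) the Enpep and Notch3 condition rested on 1 UMI.

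**Figure D1:**
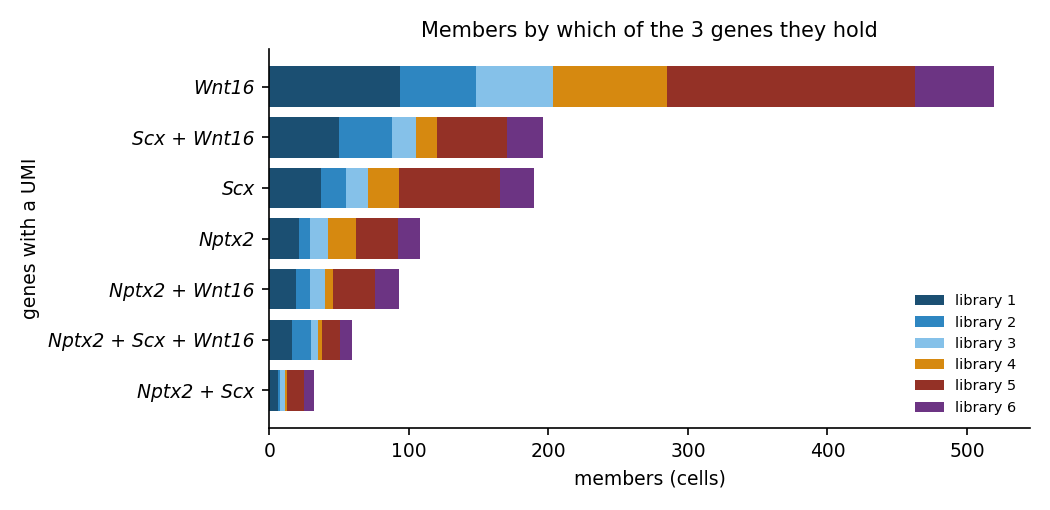
Number of members (horizontal axis, cells) by which of Nptx2, Scx and Wnt16 they hold a UMI of, with 1 color per library. Wnt16 alone is the longest bar, with 519 of 1197 cells, and cells with all 3 genes number 59.

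The 3 genes lie on different chromosomes (mm10, coordinates from the GENCODE annotation): Nptx2 at chr5:144545902-144557478 on the plus strand, Scx at chr15:76457452-76459458 on the plus strand and Wnt16 at chr6:22288227-22298522 on the plus strand. Enpep lies at chr3:129269175-129332720 and Notch3 at chr17:32120820-32166852, both on the minus strand. Scx-type factors bind E-boxes, written CANNTG, and the 250 bases before the start of Wnt16 are printed because Wnt16 was the trio gene held by most members, beside those of Gja4 and Col8a1, the called genes with the largest ratios over cells without Enpep or Notch3 at a mean of at least 20 CPM. The sequences are RefSeq's for GRCm38.p6, read 5′ to 3′ along the gene, from chr6:22287977-22288226 (plus strand), chr4:127314040-127314289 (minus strand) and chr16:57754738-57754987 (minus strand), and capitals mark each CANNTG.
Wnt16: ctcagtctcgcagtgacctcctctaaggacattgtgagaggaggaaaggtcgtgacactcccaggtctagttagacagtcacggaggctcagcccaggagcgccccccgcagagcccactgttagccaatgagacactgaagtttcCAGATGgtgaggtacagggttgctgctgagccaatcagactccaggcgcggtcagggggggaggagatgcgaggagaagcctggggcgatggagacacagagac
Gja4: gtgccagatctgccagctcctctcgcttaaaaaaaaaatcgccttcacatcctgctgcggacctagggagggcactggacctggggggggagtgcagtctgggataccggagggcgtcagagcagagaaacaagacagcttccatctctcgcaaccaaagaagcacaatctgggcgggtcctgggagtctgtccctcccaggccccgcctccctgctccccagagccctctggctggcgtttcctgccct
Col8a1: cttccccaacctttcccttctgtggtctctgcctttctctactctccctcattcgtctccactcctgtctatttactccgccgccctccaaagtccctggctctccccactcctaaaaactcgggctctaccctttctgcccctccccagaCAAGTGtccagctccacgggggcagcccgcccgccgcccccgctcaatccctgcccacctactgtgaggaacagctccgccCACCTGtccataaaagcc
The Wnt16 window held 1 match, the Gja4 window 0 and the Col8a1 window 2. CANNTG reads the same way on both strands as a pattern, and 66.2% of 32851 promoter windows of this length held at least 1. None of the 3 windows held TGGGAA, the core bound by the Notch effector RBPJ, or a CArG box, the element of serum response factor, on either strand, and these occurred in 21.6% and 1.47% of all windows. Such matches describe the letters and are not evidence of binding.

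Before the trio condition was applied, the trio was found about as often without Enpep or Notch3 as with them. At least 1 trio UMI was present in 62.3, 70.9, 48.8, 46.9, 50.3 and 67.7% of the Pln-set-low cells with an Enpep or Notch3 UMI in libraries 1 to 6. In cells with neither gene the shares were 63.8, 75.5, 55.6, 51.3, 49.9 and 69.2%. The share was higher with Enpep or Notch3 in 1 of 6 libraries, and the median difference was -2.95 percentage points. After thinning to 3000 UMIs, which kept 2089 of 2154 and 6740 of 7151 cells, it was -4.25 points and again higher in 1 of 6. Of 5401 cells under the Myh11 and Dcn limits with a trio UMI, 4075 (75.4%) held no Enpep or Notch3 UMI, and this share ran from 65.2% in library 6 to 84.4% in library 3.

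The 3 genes did not behave alike in this count. Nptx2 was found in a median of 14.5% of Enpep or Notch3 positive cells and 9.85% of cells with neither, higher in 6 of 6 libraries (7.40% and 5.64% thinned, higher in 5 of 6). For Scx the medians were 23.6% and 23.4%, higher in 2 of 6 libraries. Wnt16 was found in 40.8% and 43.7%, higher in 1 of 6 libraries, and in 19.6% and 24.0% after thinning, higher in 0 of 6. Among the 439 Enpep or Notch3 positive cells with a high Pln set, Wnt16 was found in a median of 6.43%, Scx in 13.4% and Nptx2 in 13.5%. In leukocytes, which should lack these genes and had a median of 5067.5 UMIs per cell, Nptx2 and Wnt16 were found in 0 of 354 cells, which allows a share of up to 0.847%, and Scx in 1.13%. The median shares in smooth muscle cells lay above these. Scx reached 6.25% of leukocytes in the highest library and fell to 5.71% of Pln-set-high cells in the lowest. The part of free RNA in these shares was not tested.

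**Figure D2:**
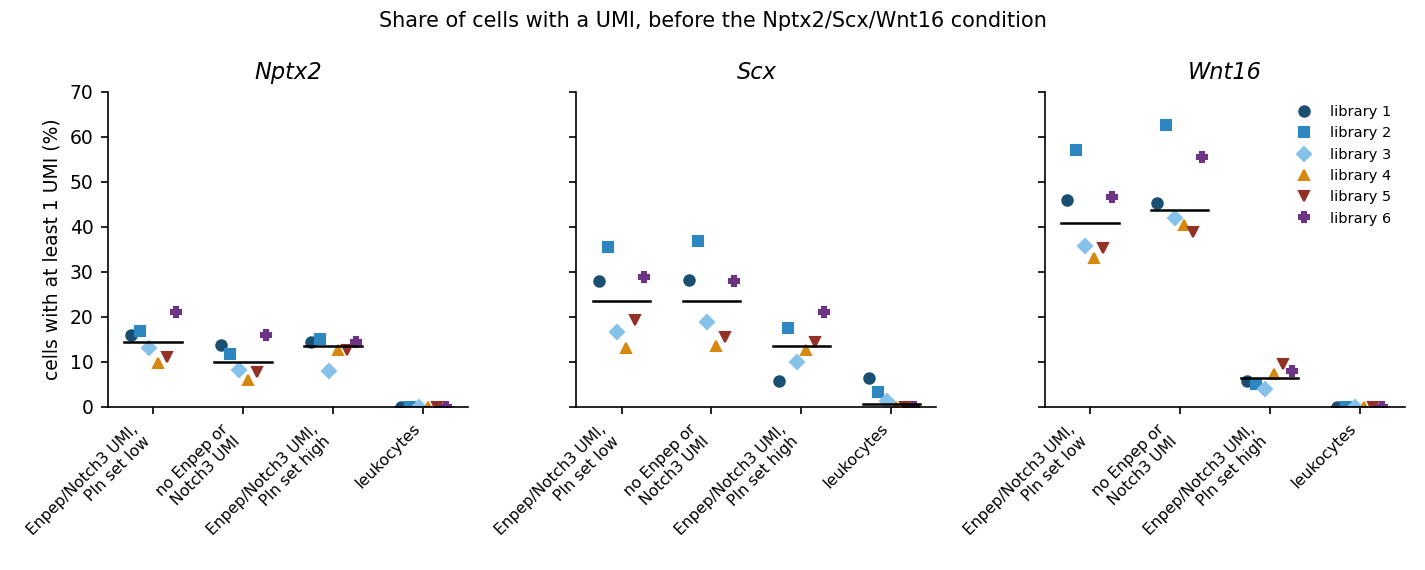
Share of cells with at least 1 UMI of Nptx2, Scx or Wnt16 (vertical axis, percent) in 4 kinds of cell before the trio condition, with 1 symbol per library and a bar at the median. Cells with and without Enpep or Notch3 overlap for all 3 genes, and for Wnt16 the Pln-set-high cells sit lowest among the smooth muscle cells.

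Co-detection was counted at equal depth. In the Enpep or Notch3 positive cells with a low Pln set, thinned to 3000 UMIs, Scx was found in 17.2% of 157 cells with Nptx2 (exact 95% interval 11.6 to 24.0%) and in 10.1% of cells without it (8.83 to 11.6%). Of 223 cells with Scx, 21.5% held Wnt16, against 20.3% of cells without Scx. Thbs1, a thrombospondin that binds matrix and can activate latent TGF-β, was found in 24.8% of cells with Nptx2, in 15.4% of cells without Nptx2, in 9.60% of 427 cells with Wnt16 and in 17.7% of cells without Wnt16. These are descriptions over pooled cells and no test was made. Cells of 1 library share their source.

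The genes of the rule were also measured on UMIs that the rule had not used. Each UMI was dealt at random, with probability 0.5, to a selecting or a held-out set, and the rule applied to the selecting set found 534 cells, 525 of which were members by all their UMIs. In the held-out UMIs, Enpep was higher than in cells without Enpep or Notch3 by a median log2 ratio of 1.84 and Notch3 by 1.11, each in 6 of 6 libraries. Nptx2 was higher by 0.79 and Scx by 0.54, each in 5 of 6, and Wnt16 differed by 0.14, higher in 4 of 6. Against Enpep or Notch3 positive cells without a trio UMI the held-out ratios were 1.27 for Nptx2, 1.70 for Scx and 1.33 for Wnt16, higher in 6 of 6 libraries. In that comparison held-out Enpep and Notch3 were lower in members by -0.60 and -1.22, in 6 of 6 libraries. Members were selected for a trio UMI, the first comparison group was not selected on the trio, and the second was selected for holding none. The held-out trio ratios can thus be raised by the rule itself and do not check the shares found before the trio condition. Likewise, the rule asked for Enpep or Notch3 in members and for neither in the first comparison group. Higher held-out Enpep and Notch3 over that group follow this selection and are descriptions only.

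The central comparison set members against the 7151 smooth muscle cells without an Enpep or Notch3 UMI, in which the Pln set was not limited. UMIs were summed per library, scaled to CPM and compared within each library, and a gene was called when all 6 libraries had the same sign and the median log2 ratio was at least 1 in size. Of 5517 genes with a mean of at least 20 CPM, 9 were higher in members (0.163%) and 4 were lower (0.0725%). Counting any size of difference, 290 genes (5.26%) were higher and 481 (8.72%) lower in all 6 libraries, and the median over all genes was -0.02. The 9 higher genes were Gja4, Col8a1, Thbs1, Palld, Apoe, C1s1, Tmem176b, Cdkn2c and Sdc3, and the 4 lower genes were Rgs5, Bche, Myoz2 and Psd. The median ratio of each kept its sign in 13 alternatives of scaling, prior, summing, weighting and choice of cells or UMIs. Single libraries did not always keep it: with no Pln-set UMI, C1s1 ranged down to -1.17 and Apoe to -0.32. The call was kept in 12 of the 13 for Gja4, Col8a1, Thbs1 and Palld, in 11 for Rgs5 and in 9 for C1s1. It was kept in 8 for Tmem176b and Cdkn2c, in 7 for Apoe, Bche and Psd, in 6 for Myoz2 and in 5 for Sdc3.

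Gja4, a gap junction connexin of arterial cells, measured 11.5, 50.8, 36.6, 66.1, 35.2 and 24.1 CPM in members of libraries 1 to 6 and 2.57, 6.55, 7.15, 8.14, 14.8 and 11.1 CPM in cells without Enpep or Notch3. Every library was higher in members, with a median log2 ratio of 2.23, and the ranges overlapped only through the member value of library 1. Col8a1, a chain of the short-chain collagen VIII, measured 24.1, 56.4, 45.1, 60.5, 41.6 and 37.0 CPM in members and 7.52, 11.2, 5.48, 10.5, 16.2 and 17.1 CPM in the others. The lowest member value lay above the highest comparison value, and the median log2 ratio was 2.0 (1.11 to 3.02).

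Thbs1 measured 70.02, 81.6, 125, 88.4, 125 and 73.4 CPM in members and 23.9, 15.6, 23.5, 30.8, 35.2 and 42.1 CPM in cells without Enpep or Notch3. The groups did not overlap, and the median log2 ratio was 1.69 (0.80 to 2.41). Palld, an actin-bundling scaffold of stress fibres, measured 294, 418, 303, 389, 435 and 314 CPM in members and 143, 164, 130, 106, 175 and 156 CPM in the others, with a median log2 ratio of 1.27 and no overlap. Apoe, the apolipoprotein, varied widely between libraries. It measured 38.4, 230, 203, 317, 112 and 165 CPM in members and 33.1, 91.1, 66.0, 112, 90.0 and 72.5 CPM in the others, and the ranges overlapped. Apoe is also abundant in the sorted fibroblasts and leukocytes, at 3381 and 2194 CPM over pooled cells.

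Among the lower genes, Rgs5, a regulator of G-protein signalling found in pericytes and arterial muscle, measured 235, 116, 357, 87.5, 87.2 and 277 CPM in members and 690, 409, 766, 370, 204 and 337 CPM in cells without Enpep or Notch3. The ranges overlapped across libraries, but within each library members were lower, with a median log2 ratio of -1.39 (-2.08 to -0.28). Bche, butyrylcholinesterase, had medians of 10.9 and 28.4 CPM (-1.28). Myoz2, a Z-disc protein that binds calcineurin, had medians of 18.0 and 37.1 CPM (-1.02), and Psd had medians of 15.8 and 50.6 CPM (-1.01).

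**Figure D3:**
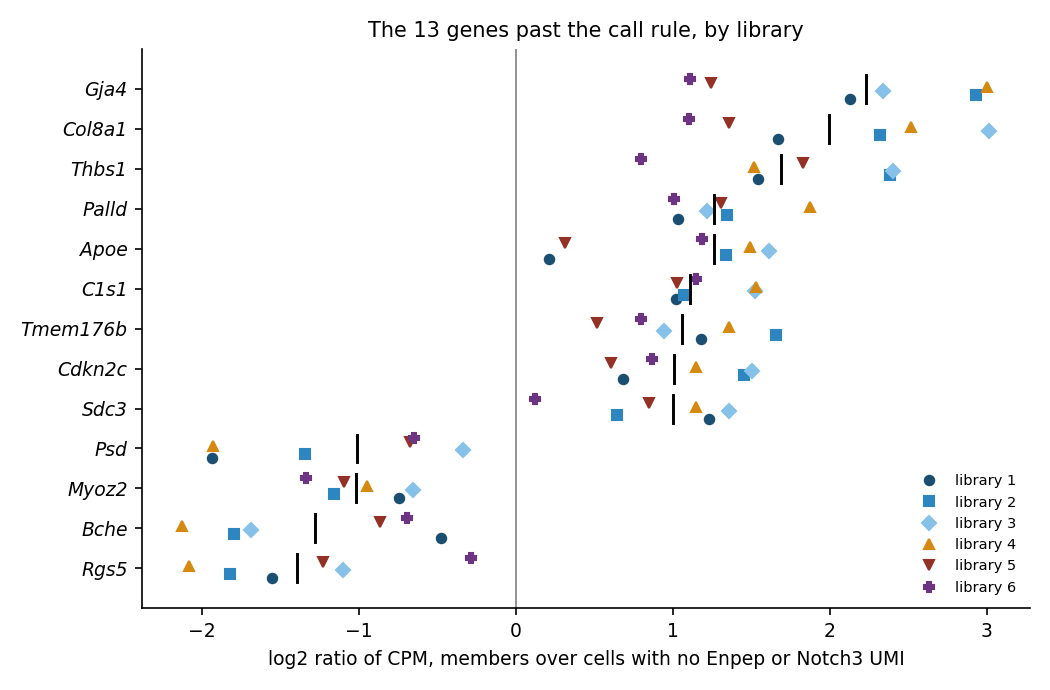
Log2 ratio of CPM of members over cells with no Enpep or Notch3 UMI (horizontal axis) for the 13 called genes, with 1 symbol per library and a bar at the median. Gja4, at a median of 2.23, and Col8a1, at 2.0, lie farthest to the right, and Rgs5, at -1.39, farthest to the left.

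Several regulators were higher in every library without reaching the size of a call, while others were lower. Of 26 developmental transcription factors at a mean of at least 20 CPM, 0 were called. In all 6 libraries, 6 of them were higher and 6 lower (median log2 ratio -0.01). The cardiac and mesenchymal factors Tbx20 and Msx1 each had a median log2 ratio of 0.91, and Hes1, a Notch target, had 0.68 (medians of 128 and 65.4 CPM). Gata4, a zinc-finger factor of the heart and outflow tract, measured 14.6, 15.9, 16.9, 32.6, 27.8 and 15.1 CPM in members and 8.52, 8.47, 11.3, 13.03, 21.9 and 9.58 CPM in the others, a median log2 ratio of 0.71 with a mean under 20 CPM. Neither Hes1 nor Gata4 was higher in every library when no cell on either side held a Pln-set UMI. Their median log2 ratios were then 0.34 and 0.72, with lowest values of -0.24 and -0.18. Thinned to 3000 UMIs before selection, they were 0.51 and 0.11, again not positive in every library. Gata4 then rested on 18 UMIs in members. Comp and Wisp1 are matricellular proteins with means also under 20 CPM. Their median log2 ratios of 1.33 and 1.48 had the size of a call and the same sign in 6 of 6 libraries. Over pooled cells Comp stood at 591 CPM in the 24 members at 10 to under 20 Dcn UMIs per 10000 and at 446 CPM in fibroblasts, but at 10.2 CPM in the 640 members with no Dcn UMI and at 8.77 CPM in cells without Enpep or Notch3. Mkx, a homeobox factor active in tendon, was picked out after its values were seen. It rested on 70 UMIs in members, with medians of 6.97 and 1.14 CPM and a log2 ratio of 2.33 in 6 of 6 libraries. Of 30 listed tendon and cartilage genes, 2 had a mean of at least 20 CPM and 0 were called. In all 6 libraries, 0 of these 2 were higher and 1 was lower (median log2 ratio -0.03).

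Few genes of the pathway lists were called, and some lists held more genes with 1 sign in all 6 libraries than the 5.26% (higher) and 8.72% (lower) of all genes. Of 30 contractile genes 0 were called, 11 were higher and 4 lower in all 6 libraries, and the median log2 ratio was 0.04. Of 16 elastic fibre genes 0 were called and 8 were lower in all 6 libraries (median -0.15), with Eln, the elastin gene, at medians of 1168 and 1564 CPM and Mfap5 at a log2 ratio of -0.66. Of 16 collagens, Col8a1 was called higher and 7 were lower in all 6 libraries (median -0.12). Of 7 Notch pathway genes 0 were called (median 0.16), with Hey2 at 0.45, and of 30 TGF-β and BMP pathway genes 0 were called (median 0.02). Of 20 Wnt pathway genes 0 were called (median -0.08): the secreted inhibitor Sfrp1 was higher by 0.55 and Frzb lower by -0.61 in all 6 libraries, and the receptors Fzd1 and Fzd2 differed by -0.04 and -0.17. No Wnt ligand other than Wnt16 passed the level filter. Of 14 thrombospondins and matricellular proteins 1 was called, Thbs1, and of 39 oxidative phosphorylation genes 0 were called and 11 were higher in all 6 libraries (median 0.06). Of 25 dissociation stress genes 0 were called and 6 were higher in all libraries, and the median share of stress UMIs was 1.53% in members and 1.2% in cells without Enpep or Notch3. The part of dissociation and of the depth difference in these ratios was not tested beyond the alternatives given at the end.

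Among the members, Thbs1, Gja4 and Palld were higher where more Enpep, Notch3 and Pln-set UMIs were found. Thbs1 stood at 54.9 CPM over pooled members with 1 Enpep or Notch3 UMI, at 166 CPM with 2 or more and at 210 CPM with 3 or more. Gja4 stood at 21.6, 56.9 and 69.6 CPM and Palld at 251, 577 and 810 CPM in the same order. Tes, a LIM-domain protein of focal adhesions, went the other way, at 124, 59.9 and 35.7 CPM, and so did Eln, at 1189, 823 and 530 CPM. Thbs1 was at 40.4 CPM in members with Notch3 alone and at 107 CPM in members with Enpep alone, against 28.5 CPM in cells with neither gene.

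The Pln set divided members still further, although every member was under its limit. A total of 718 members (60.0%) held no Pln-set UMI and 479 (40.0%) held some. Thbs1 measured 35.6, 7.75, 40.7, 45.9, 71.5 and 27.2 CPM in the former and 136, 165, 264, 144, 191 and 127 CPM in the latter, with no overlap. The median of Gja4 was 11.0 CPM without and 71.3 CPM with Pln-set UMIs, that of Palld 177 and 585 CPM, and that of Col8a1 17.1 and 76.3 CPM. For Tes the medians were 131 and 37.9 CPM, for Eln 1481 and 653 CPM and for the microfibril gene Mfap5 415 and 114 CPM. Pln-set-high cells lay beyond on the same side, at 462 CPM of Thbs1, 159 CPM of Gja4, 128 CPM of Eln and 0.649 CPM of Tes, with Col8a1 the exception at 49.1 CPM.

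**Figure D4:**
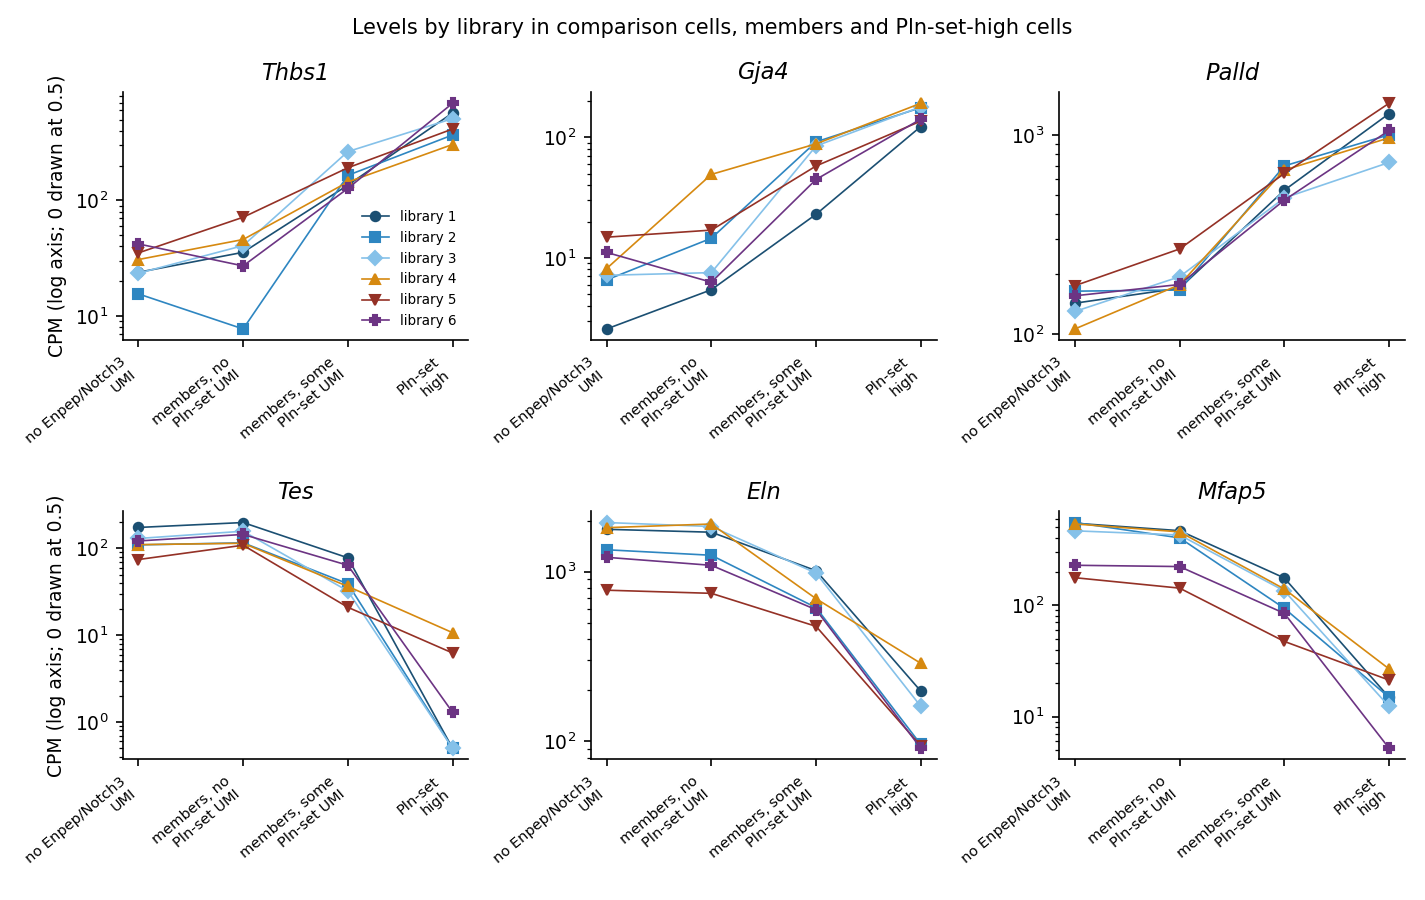
Level of 6 genes (vertical axis, CPM on a log axis, 0 drawn at 0.5) in cells with no Enpep or Notch3 UMI, members without and with Pln-set UMIs, and Pln-set-high cells, with 1 line per library. Thbs1, Gja4 and Palld are higher, and Tes, Eln and Mfap5 lower, in members with a Pln-set UMI than in members without 1 in every library.

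When no cell on either side was allowed a Pln-set UMI, which left 718 members and 5577 comparison cells, 0 genes were called higher and 3 lower. The median log2 ratios were then 1.25 for Gja4, 1.2 for Col8a1, 1.09 for Thbs1 and 0.85 for Palld. Thbs1 was no longer higher in every library, while Rgs5 stayed called at -1.22. Gja4 and Col8a1 kept their sign in all 6 libraries and the size of a call. They missed the call only through the level filter, at medians of 11.0 and 17.1 CPM in members and 3.86 and 6.48 CPM in comparison cells. When members needed 2 or more Enpep and Notch3 UMIs, 399 remained, 33 genes were called higher and 28 lower, and the ratios were 3.07 for Gja4, 3.16 for Col8a1, 2.69 for Thbs1 and 1.91 for Palld. Both alternatives were chosen after the data were seen. At the Pln-set limit itself, and pooled over cells, the 59 members at 6 to under 8 per 10000 held 336 CPM of Thbs1, 80.1 CPM of Wnt16 and 27.9 CPM of Tes, and the 39 cells just outside, at 8 to 10 per 10000, held 371, 67.1 and 3.20 CPM. At the Myh11 limit, also pooled, the 59 members at 5 to 10 per 10000 held 20028 CPM of Acta2 and 793 CPM of Apoe, and 38 otherwise eligible cells below 5 held 9966 and 2033 CPM.

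A further comparison, on the trio condition, set members against the 957 cells that met every other condition but held no trio UMI. Their median depth was 6576 UMIs per cell, below that of members. Of 5496 genes, 2 were higher in members (0.0364%) and 9 were lower (0.164%), and the median over all genes was 0.00. The higher genes were Igfbp2, which binds insulin-like growth factors, and Wif1, a secreted inhibitor of Wnt ligands. Igfbp2 measured 119, 183, 259, 64.2, 122 and 118 CPM in members and 86.2, 32.99, 69.4, 43.1, 23.7 and 11.6 CPM in the others, with a median log2 ratio of 2.12. Wif1 measured 102, 101, 48.8, 87.5, 30.2 and 13.4 CPM in members and 49.4, 20.4, 22.7, 40.5, 11.0 and 7.72 CPM in the others, with 1.09. Both spanned a wide range between libraries and overlapped, and against cells without Enpep or Notch3 they differed by 0.48 (higher in 5 of 6) and -0.06. Neither was called with cells thinned to 3000 UMIs (log2 ratios 1.15 and 0.75) or with no Dcn, Ptprc, Pecam1 or Cdh5 UMI in any cell (1.36 and 0.90). Igfbp2 was not called with comparison cells weighted to the members' depth, nor Wif1 with comparison cells weighted to the members' stress share (0.93) or without high doublet scores (0.96).

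Of the 9 lower genes, Cxcl1, a neutrophil chemokine, had medians of 24.8 and 95.0 CPM (log2 ratio -2.07), Socs3, an inhibitor of cytokine signalling, 64.6 and 161 CPM (-1.23), Irf1, an interferon-response factor, 21.0 and 40.4 CPM (-1.19) and Klf4, a zinc-finger factor, 89.1 and 183 CPM (-1.06). The other lower genes were Fst (follistatin, -2.14), Phlda1 (-1.34), Sncg (-1.10), Arc (-1.07) and Hes1. Hes1 measured 41.9, 108, 170, 88.4, 168 and 147 CPM in members and 115, 207, 360, 186, 331 and 202 CPM in cells without a trio UMI, a median of -1.03. Of 25 dissociation stress genes 1 was called lower and 15 were lower in all 6 libraries, against 280 of all 5496 genes. The median share of stress UMIs was 1.53% in members and 2.26% in the others. With comparison cells weighted to the members' stress share, 4 genes in place of 9 were lower, and the log2 ratios of Socs3, Irf1 and Klf4 were -0.51, -0.66 and -0.71 without a call, while Cxcl1 stayed called at -1.62. Thbs1, Gja4, Palld and Col8a1, which separated members from cells without Enpep or Notch3, were not higher in members here: their medians were 85 and 165 CPM, 35.9 and 47.3 CPM, 351 and 342 CPM, and 43.3 and 40.6 CPM, with log2 ratios of -0.72, -0.63, -0.16 and 0.03.

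By share of cells with a UMI at 3000 UMIs per cell, genes whose pattern was most like the trio's included Mfap4, Sh3bgr, Postn, Actg2, Cbr2, Msrb1, Fbxl22, Htra3 and Col18a1. Mfap4, a microfibril-associated protein, was found in a median of 84.5% of members and 65.6% of cells without a trio UMI, a median difference of 16.3 points. Postn (periostin) was found in 66.3% and 49.9% and Actg2, the enteric smooth muscle actin, in 55.1% and 37.9%. Of these 9 genes, 8 were higher in members in 6 of 6 libraries and Htra3 in 5 of 6. Likeness was measured over 6 libraries as this difference in share. The genes were picked by its median, so higher shares in members follow from that choice. By pooled level, Mfap4 and Postn were not particular to members. Mfap4 stood at 1776 CPM in members and 2377 CPM in cells without Enpep or Notch3, and Postn at 677 and 719 CPM.

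Against the 439 Enpep or Notch3 positive cells with a high Pln set, members differed in many more genes. Of 5400 genes, 190 were higher in members (3.52%) and 175 lower (3.24%), with a median over all genes of 0.06. Of 14 elastic fibre genes 9 were higher and 0 lower (median 1.19), among them Mfap5 (287 and 14.9 CPM, log2 ratio 4.33), Mfap4 (2247 and 94.4 CPM, 4.11) and Eln (1168 and 128 CPM, 3.07). Of 16 collagens 9 were higher and 0 lower (median 1.12), among them Col15a1 (143 and 17.0 CPM) and Col1a1 (664 and 162 CPM).

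Tes measured 157, 80.0, 111, 81.0, 69.8 and 108 CPM in members and 0, 0, 0, 10.7, 6.25 and 1.30 CPM in Pln-set-high cells, and no value overlapped. Sema3d, a secreted semaphorin, had medians of 38.5 and 0 CPM, Sfrp2, a secreted Frizzled-related protein, 45.4 and 1.25 CPM, and Dsp, desmoplakin, 71.9 and 2.84 CPM. Osr1, a zinc-finger factor of the embryonic mesenchyme, had medians of 189 and 12.1 CPM. Ratios against libraries at 0 rest on the added prior of 0.5 UMI and are not bounds.

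On the lower side were Kcna5, a voltage-gated potassium channel (3.58 and 69.5 CPM), Acta1, the skeletal muscle actin (3.77 and 78.4 CPM), Rasd1, a glucocorticoid-induced small GTPase (14.5 and 196 CPM), S1pr3, a receptor of sphingosine phosphate (3.30 and 37.9 CPM), and Nrip2 (1.61 and 56.9 CPM). Thbs1 and Hes1 were lower too, with log2 ratios of -2.09 and -2.27. So were Tbx2 and Nr2f2, transcription factors of the outflow tract and of venous and mesenchymal cells, at 13.8 against 93.5 CPM and 101 against 502 CPM. Gata4 had medians of 16.4 and 38.1 CPM and was lower in 6 of 6 libraries, just short of a call at -1.0. Of 30 contractile genes 1 was higher, Itga8, and 3 were lower, among them Synm and Mustn1. At any size, 6 were higher and 11 lower in all 6 libraries, against 979 and 627 of all 5400 genes. Of 25 dissociation stress genes 9 were lower, and the share of stress UMIs was 3.06% in the Pln-set-high cells.

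Nearest neighbours were counted with the gate genes left out, on 20 neighbours in 20 principal components within each library. A median of 20.1% of the neighbours of members were members (11.8 to 27.4%), against a 13.6% share of members in the library, and the value was above that share in 6 of 6 libraries. The same held for Enpep or Notch3 positive cells without a trio UMI, whose neighbours were members in a median of 18.0% (13.9 to 28.8%), above the share in 6 of 6 libraries and above the members' own value in libraries 1, 2, 3 and 6. Cells without Enpep or Notch3 made up 64.3% of members' neighbours (60.2 to 68.6%) and 72.8% of the library. In library 6 they were above their share, at 64.3% of members' neighbours and 61.8% of the library. Among the neighbours of Pln-set-high cells, 54.3% were of their own kind against a share of 4.32% in the library. Thinned to 3000 UMIs, members made up 17.8% of their own neighbours, against 14.1% of cells. Most of the members' neighbours were cells that the rule had left out, which the members' small share of each library makes likely in any case.

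**Figure D5:**
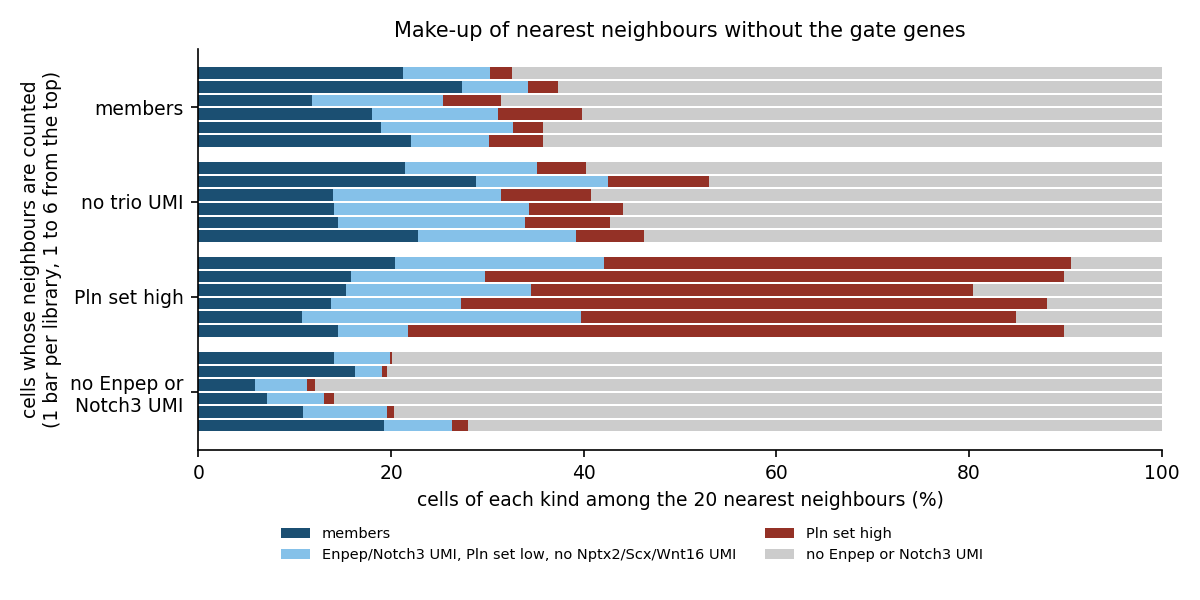
Kinds of cell among the 20 nearest neighbours (horizontal axis, percent) for members, for cells with an Enpep or Notch3 UMI but no trio UMI, for Pln-set-high cells and for cells with no Enpep or Notch3 UMI, with 1 bar per library. Cells with no Enpep or Notch3 UMI fill 60.2 to 68.6% of members' neighbours, while Pln-set-high cells have a median of 54.3% of their own kind.

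Members also differed among themselves by which trio gene they held. The 292 members with Nptx2 were set against the 519 with Wnt16 alone, a pair chosen after the values were seen, so the values are descriptions. Pooled over cells, the Nptx2 members also held more Pln (96.1 and 54.5 CPM) and Pgam2 (47.9 and 22.9 CPM). The same went for Corin (21.5 and 13.2 CPM) and Olfr558 (7.63 and 1.05 CPM). The part of the Pln set in the differences below was not tested. Of 5442 genes, 15 were higher (0.276%) and 8 lower (0.147%) in the Nptx2 members, with a median over all genes of -0.04. Thbs1 measured 170, 123, 238, 147, 233 and 81.9 CPM in the Nptx2 members and 35.6, 50.8, 40.3, 45.5, 56.6 and 9.14 CPM in the Wnt16 members, without overlap (median log2 ratio 2.14). Palld measured 428, 765, 508, 739, 653 and 455 CPM and 243, 204, 155, 219, 290 and 148 CPM, also without overlap (1.66). Sbspon, a secreted protein with a thrombospondin repeat, had medians of 31.7 and 6.39 CPM (2.11), Col8a1 70.6 and 20.5 CPM (1.59), and Ankrd1, a muscle stress-response ankyrin repeat protein, 113 and 35.0 CPM (1.19).

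Lower in the Nptx2 members were Tnnt2, the cardiac troponin T (46.2 and 155 CPM, -1.73), Vcam1, a leukocyte adhesion molecule (21.1 and 51.6 CPM, -1.39, but 0.11 with cells thinned to 3000 UMIs), and Rbp4, the retinol carrier (59.5 and 178 CPM, -1.05). Eln was lower in 6 of 6 libraries without a call, at medians of 731 and 1460 CPM. Rgs5 ran from 5.06 to 869 CPM between libraries in the Nptx2 members and was higher in 3 of 6. Pooled over cells, members with Scx alone lay nearer to members with Nptx2 alone than to members with Wnt16 alone in Thbs1 (164, 198 and 42.0 CPM in that order) and Palld (453, 614 and 226 CPM), but nearer to members with Wnt16 alone in Tnnt2 (120, 50.2 and 159 CPM) and Vcam1 (125, 27.9 and 54.3 CPM).

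GFP transcripts of the lineage tracer were found in members of libraries 1 to 4, in 21 of 243 (8.64%), 16 of 144 (11.1%), 3 of 120 (2.5%) and 6 of 150 cells (4%). In cells without Enpep or Notch3 of the same libraries the shares were 10.7, 13.1, 4.21 and 5.08%. In leukocytes they were 3.13, 0, 1.27 and 0%. Libraries 5 and 6, with 8 and 6 GFP UMIs in all, had 0 of 385 and 0 of 155 members with 1. Members were below the comparison cells in each of the 4 libraries, by less than the width of the members' exact 95% intervals, which ran from 5.43 to 12.9% in library 1. The labels give the tracer for 2 mice, and the study's methods allow it in mice of either Tgfbr1 genotype, so no library was assigned to a mouse from GFP.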

How the data were processed

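Per the labels and the methods, the authors digested each aorta, sorted nucleated live cells, made 1 10x Genomics 3' v3 library per mouse, aligned it to mm10 and aggregated the libraries with Cell Ranger (version 6 in the methods, cellranger-4.0.0 in the matrix header). The deposited matrix holds UMI counts, not normalized, of 31053 mouse genes and 2 added sequences. Cells with over 1000 and under 5000 genes, over 1500 and under 25000 UMIs and under 20% mitochondrial UMIs were kept, which left 24972 of 30716 barcodes. The trio, the other limits, the members and the gene lists were chosen with earlier results of these data known.

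Counts were summed per library and kind of cell and scaled to CPM, and log2 ratios were formed within a library after 0.5 UMI was added per gene in proportion to depth. The libraries could not be tied to mice and are not replicates of a group, so no test was made. A gene was called with the same sign in 6 libraries and a median log2 ratio of at least 1 in size, at a mean of at least 20 CPM. Genes of the rule were not counted, and some genes that the naming rule picks are not reported here. Named genes were the 15 largest and 15 smallest called ratios of the central comparison, the 8 largest and 8 smallest of each other comparison, and, in each list, every called gene and the 2 largest and 2 smallest ratios. Thinning drew 3000 UMIs per cell, and shallower cells were left out. Intervals are exact Clopper-Pearson intervals, and a count of 0 was given a limit of 3 counts. The code was tested on simulated data. Python 3.11.15, numpy 2.4.6, pandas 2.3.3, scipy 1.17.1, scikit-learn 1.9.0, scanpy 1.11.5 (doublet scores) and, for alternative scalings, R 4.3.3 with edgeR 4.0.16 and DESeq2 1.42.0 were used. Alternatives are given in the closing section.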

Additional observations from a re-analysis of the deposited data

Results flagged for a closer look

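Of 28 values examined across the 6 libraries, 1 had a library far from the others. Phlda1, which was lower in members than in Enpep or Notch3 positive cells without a trio UMI, had a log2 ratio of -0.42 in library 5 and of -1.59 to -1.21 in the other libraries. The gap was 0.672 of the whole range. Chance gives such a gap in about 1 in 20 groups.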

How the results depend on the processing

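No paired analysis was possible because the barcode endings of the libraries carry no replicate number of the labels, beyond the ratios formed within each library. All 13 genes called between members and cells without Enpep or Notch3 kept the sign of their median in 13 of 13 alternatives. They stayed called in 5 (Sdc3) to 12 of them. Level filters, the 0.5 cut-off and leaving out 1 library were not among these alternatives. The counts of higher and lower genes, 9 and 4, became 56 and 159 with no level filter, 4 and 1 at 50 CPM, and 38 and 32 at a log2 ratio of 0.5. The lower count became 2 with DESeq2 size factors, 14 with cells thinned before selection, 2 with stress-weighted comparison cells, 0 with no Dcn, Ptprc, Pecam1 or Cdh5 UMI in any cell, and 7 against Pln-set-low cells without a trio UMI. With 2 or more Enpep and Notch3 UMIs, chosen after seeing the data, the counts were 33 and 28. With no Pln-set UMI 0 genes were called higher, with Gja4 and Col8a1 under the level filter. Leaving out 1 library in turn gave 7 to 13 higher and 2 to 5 lower genes, with 2 lower genes without library 2 or library 4.

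Against cells without a trio UMI, the 2 and 9 genes became 26 and 49 with no filter and 18 and 59 at 0.5. The higher count became 1 at 50 CPM, thinned, depth-weighted, stress-weighted, or without high doublet scores, and 0 with no Dcn, Ptprc, Pecam1 or Cdh5 UMI or with 2 or more Enpep and Notch3 UMIs. The lower count became 17 in 1 sum over libraries, 4 stress-weighted, 4 with no Dcn, Ptprc, Pecam1 or Cdh5 UMI, 18 with 2 or more trio UMIs and 3 with 2 or more Enpep and Notch3 UMIs. Leaving out 1 library gave 2 higher and 8 to 13 lower genes. Against Pln-set-high cells, 190 and 175 genes became 624 and 336 with no filter, 97 and 106 at 50 CPM, and 481 and 360 at 0.5, and 184 to 208 and 169 to 193 without 1 library.

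Between Nptx2 members and Wnt16 members, 15 and 8 genes became 38 and 62 with no filter, 7 and 5 at 50 CPM, and 42 and 52 at 0.5. The lower count became 13 in 1 sum, 53 thinned and 13 with no Dcn, Ptprc, Pecam1 or Cdh5 UMI. Without 1 library the counts were 11 to 19 and 9 to 15, with 14 lower genes without library 1 and 15 without library 6. Thinned, Parm1 (-0.19) and Vcam1 (0.11) changed sign. The members' share of 13.6% became 3.27% thinned and 8.10% with 2 or more trio UMIs, and ran from 12.1 to 15.1% without 1 library. The trio difference ran from -4.41 to -1.49 points, and members' own neighbours from 19.0 to 21.3%. The causes were not tested. Depth limits the rule itself, since 40.4% of members hold a single trio UMI and 66.7% a single Enpep or Notch3 UMI, and position and genotype could not be compared.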
